A study of Mus musculus with 27 samples.

Results

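The insulin-like growth factor (IGF) system was described through 9 genes chosen by symbol: the ligands Igf1 and Igf2, the receptor Igf1r and the binding proteins Igfbp2, Igfbp3, Igfbp4, Igfbp5, Igfbp6 and Igfbp7. All 9 were found among the 40129 genes of the mouse retina table, and all 9 passed the filter for testing, a mean of 1 normalized read or more, with 27137 genes in total. IGF ligands are secreted growth factors that bind a receptor tyrosine kinase on the cell surface and promote survival and growth. The binding proteins are secreted as well, carry the ligands and either hold them away from the receptor or deliver them to it, and Igfbp7 is a more distant relative that binds the ligands weakly and is known from the walls of blood vessels. In the developing retina, IGF1 is known to be needed for normal vessel growth, and its loss and later return is a recognized part of retinopathy of prematurity.

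The series profiled the retina in a mouse model, oxygen-induced retinopathy (OIR). In this model vessels of the central retina are lost under hyperoxia, the return to room air leaves the retina hypoxic, and new vessels then form. All mice were wildtype C57BL/6 pups of either sex (C57BL/6J in the study's methods). OIR pups were kept in 75% oxygen from postnatal day (p) 7 to p12, returned to room air, and killed at p14 (OIR p14, n = 6 mice) or p17 (OIR p17, n = 8). Control pups stayed in room air throughout and were killed at p14 (nOIR p14, n = 6 after mouse S4 was left out for lens RNA, as the study's methods state) or p17 (nOIR p17, n = 6). OIR pups outside a set weight range at p17 had been excluded by the study. Each library came from the whole retina of 1 mouse, from 1 or both eyes, after perfusion of the heart with saline. Per the study's methods, each group came from fewer litters than mice. Litters could not be assigned to single mice, which were treated as independent, so that p-values measure the spread between mice. All p-values here may be too small where mice of a litter are alike.

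Recovered totals ran from 17029536 to 33593428 reads per mouse (median 30182576). Rod markers were the most abundant of the cell type lists in every group, and none of the listed marker genes in the table was at 0 in all mice of a group. Lens genes varied most between libraries. Their summed level ran from 320 to 33819 normalized reads in OIR p17 and from 65.7 to 19136 in nOIR p14, and 4 mice (nOIR p14 S5 and OIR p17 S2, S7 and S8) carried at least as much of the lens gene Cryaa as the excluded mouse. Members were therefore also tested without these 4 mice. In a principal component analysis of all genes tested, OIR p14 S1 stood apart on the third component, at -129 with the other 25 mice between -37.9 and 48.1, and OIR p17 S8 on the second, at 102 with the others between -67.1 and 46.0. Without S1 the differences called at p14 were 2.76 for Igfbp3 (adjusted p = 0.000117, limma), 0.86 for Igfbp5 and 0.67 for Igfbp2, and without S8 those called at p17 were 1.84 for Igfbp7, 1.94 for Igfbp3, 1.21 for Igfbp5, 0.64 for Igfbp2 and -0.34 for Igf1 (adjusted p = 0.0143, limma), so that each call held.

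The levels of the 9 genes were far apart. Per kb of exon, nOIR p14 retinas held 1736 ± 246 normalized reads of Igfbp7 (mean ± SD, n = 6), 352 ± 29.5 of Igfbp2, 301 ± 40.8 of Igfbp4, 174 ± 26.5 of Igfbp5, 167 ± 18.0 of Igf1, 166 ± 23.6 of Igf1r, 55.0 ± 20.9 of Igfbp3, 16.4 ± 7.29 of Igfbp6 and 6.34 ± 1.18 of Igf2. Igfbp5, Igf1 and Igf1r lay within each other's spread, the step between Igfbp2 and Igfbp4 was smaller than the sum of their SDs, and the other steps in this order were larger than the SDs on either side. In OIR p17 the order began with Igfbp7 at 5522 ± 2567 (n = 8), followed by Igfbp2 at 552 ± 144, Igfbp3 at 425 ± 313 and Igfbp5 at 358 ± 73.5, and Igf1 had moved to 117 ± 12, below Igf1r at 179 ± 35.6.

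**Figure D1:**
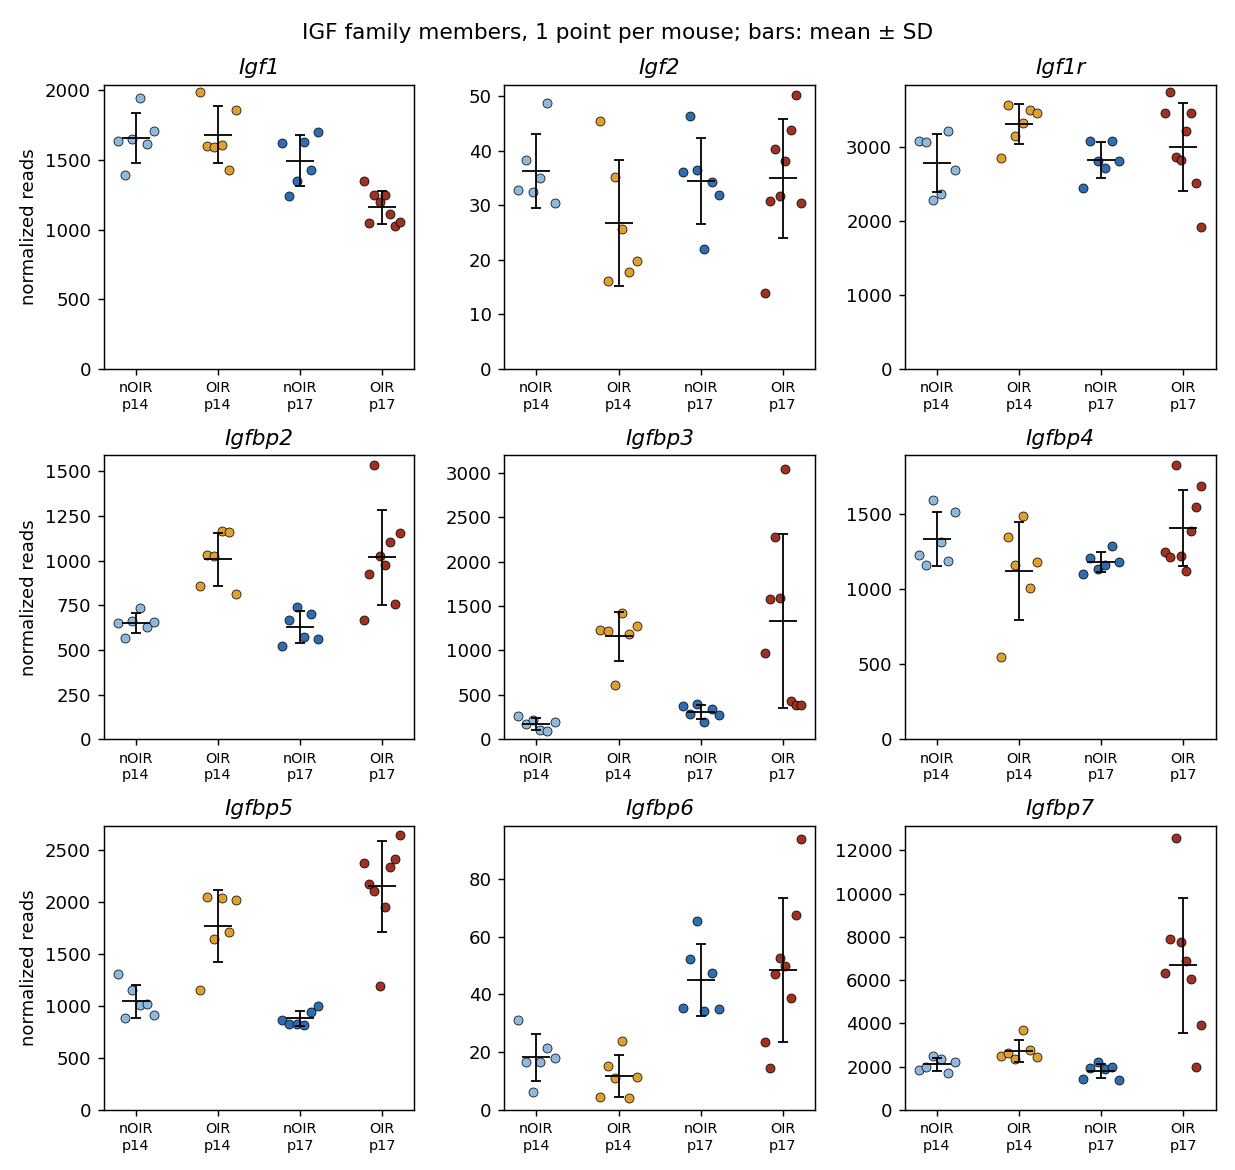
Normalized reads (y axis) of the 9 members in each mouse by group (x axis), with black bars for the mean ± SD. Igfbp2, Igfbp3 and Igfbp5 stood higher in OIR than in nOIR mice at both ages, Igfbp7 in OIR p17, and Igf1 was lower in OIR p17, while 3 OIR p17 mice (S6, S7 and S8) had Igfbp3 between 380.2 and 427.

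The comparison of OIR with nOIR at p14 addresses the hypoxic phase before new vessels form. In that comparison 3 of the 9 members rose, Igfbp3, Igfbp5 and Igfbp2, and none fell, at an adjusted p under 0.05 (limma on log2 of normalized reads + 1, Benjamini-Hochberg over all genes tested). Of all genes tested, 6.09% were called at p14, 3.18% as higher and 2.91% as lower. At p17, when new vessels are most extensive in this model, 4 members rose, Igfbp7, Igfbp3, Igfbp5 and Igfbp2, and 1 fell, Igf1, where 12.5% of all genes were called, 7.39% as higher and 5.12% as lower. The stricter DEG definition of the study also asks for a log2 fold change past 2, and Igfbp3 met it at p14, beside 0.744% of all genes in the higher direction at p14 and 1.9% at p17. At p17 the result for Igfbp3 depends on the fit. Its difference was 1.74 on the mean of log2 values, and 2.11 by edgeR, 2.11 by DESeq2 (the tool of the study), 2.05 with the replicate number as a block and 2.17 without the 4 mice high in lens RNA. Igfbp7 at p17 was 1.76, 1.90 by edgeR and by DESeq2, and 2.11 without these 4 mice. The libraries are of whole tissue, so that fewer cells of a type and less RNA per cell cannot be told apart in any of these values.

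**Figure D2:**
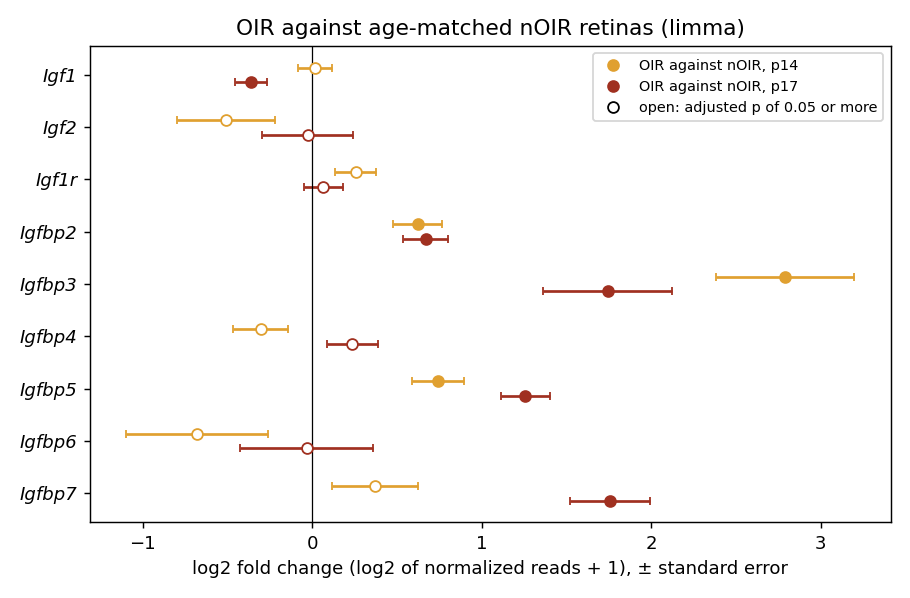
Log2 fold change of OIR against nOIR mice (x axis, ± standard error, limma) for each member (y axis) at p14 and p17, with filled points for an adjusted p under 0.05. Igfbp3 is the farthest from 0 at p14, at 2.79, and Igfbp7 and Igfbp3 are the farthest at p17, at 1.76 and 1.74.

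Igf1 encodes the main IGF ligand of postnatal growth. Its normalized reads ran from 1392 over a median of 1642 to 1947 in nOIR p14 and from 1429.8 over 1604 to 1991 in OIR p14. The groups overlapped almost completely, and the log2 difference was 0.02 ± 0.10 (standard error; adjusted p = 0.967, limma). At p17 it ran from 1242 over 1526 to 1704 in nOIR and from 1024 over 1155 to 1352 in OIR. All 8 OIR p17 mice lay below the nOIR p17 median and 5 of them below every nOIR p17 mouse. Igf1 fell by 0.36 ± 0.09 on the log2 scale (adjusted p = 0.00693, limma), to 0.776 of the nOIR p17 mean. Without the 4 mice high in lens RNA the difference was -0.27 and no longer passed the test (adjusted p = 0.0898, limma). Within OIR p17, Igf1 was lowest in S7, S2 and S8, at 1024, 1050 and 1054, and these are the 3 OIR p17 mice of highest lens RNA. Across the 8 mice the Pearson r of log2 Igf1 with the log2 summed lens level was -0.82, but it was 0.76 in nOIR p14, -0.26 in OIR p14, -0.03 in nOIR p17 and -0.13 for deviations from the group means over the 26 mice. Within OIR p17, Igf1 also had an r of -0.72 with the rod, -0.69 with the retinal pigment epithelium and -0.69 with the Muller glia marker sum. These values are given as a description. With log2 Cryaa as a covariate in the fit of all mice, the difference of Igf1 at p17 was -0.36 and passed the test (adjusted p = 0.00963, limma).

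Igf2, the ligand of fetal growth, had 30.3 to 48.8 normalized reads (median 33.9) in nOIR p14, 16.1 to 45.5 (22.7) in OIR p14, 22.1 to 46.5 (35.2) in nOIR p17 and 14.0 to 50.3 (35.0) in OIR p17. The 4 groups overlapped. The log2 differences of OIR from nOIR were -0.51 ± 0.29 at p14 (adjusted p = 0.394, limma) and -0.03 ± 0.27 at p17 (adjusted p = 0.972, limma), and at p17 the sign turned under 3 other settings and with 2 of the single mice left out.

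Igf1r, the signalling receptor for both ligands, showed no called difference. Its median was 2878 in nOIR p14 (range 2281 to 3209) and 3388 in OIR p14 (2847 to 3561), and 4 of 6 OIR p14 mice lay above every nOIR p14 mouse. The log2 difference was 0.26 ± 0.12, which passed at an unadjusted p of 0.0454 and not after adjustment (adjusted p = 0.28, limma). At p17 the median was 2811 in nOIR (2444 to 3077) and 3044 in OIR (1912 to 3744), with 4 OIR mice above and 1 below all nOIR mice. The log2 difference there was 0.06 ± 0.11 (adjusted p = 0.812, limma). The lowest OIR p17 values of Igf1r were those of S8 and S7, at 1912 and 2506.

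Igfbp3, the main carrier of IGF ligands in serum, changed more at p14 than any other member. It ran from 91.6 over a median of 182 to 258 normalized reads in nOIR p14, and from 613 over 1221 to 1425 in OIR p14. The lowest OIR p14 mouse had more than 2 times the reads of the highest nOIR p14 mouse, and the groups did not overlap, as was the case for 3.77% of all genes in either direction. Igfbp3 rose by 2.79 ± 0.41 on the log2 scale (adjusted p = 3.09e-05, limma), from a mean of 172 ± 65.3 to 1157 ± 280.0 (SD, n = 6 each), a ratio of 6.72. It stood at rank 107 by p among 14158 genes that were higher in OIR p14, and 0.321% of all genes had a larger change in size.

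At p17 the difference of Igfbp3 was called again, on a much wider spread. In nOIR p17 it ran from 189.7 over 311 to 399 normalized reads. In OIR p17 it was 974 in S1, 1576 in S2, 2279 in S3, 1586 in S4 and 3046 in S5, but 427 in S6, 382 in S7 and 380.2 in S8. The first 5 of these mice lay far above all controls, while S7 and S8 lay within the nOIR p17 range and S6 just above it. Igfbp3 rose by 1.74 ± 0.38 on the log2 scale (adjusted p = 0.00151, limma), from 309 ± 76.1 to 1331 ± 979 (n = 6 and 8), a ratio of means of 4.31. Its SD in OIR p17 was 73.6% of the mean, against 37.9% in nOIR p14, 24.2% in OIR p14 and 24.7% in nOIR p17. The difference held without the 4 mice high in lens RNA, at 2.17 (adjusted p = 6.78e-05, limma), and when any single mouse was left out it lay between 1.51 and 1.94. The litter of each mouse is not known here, so whether S6, S7 and S8 shared one was not tested.

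Igfbp7, abundant in vessel walls, differed mainly at p17. It ran from 1724 over a median of 2106 to 2490 normalized reads in nOIR p14 and from 2359.5 over 2537 to 3712 in OIR p14. All 6 OIR p14 mice lay above the nOIR p14 median and 3 above every nOIR p14 mouse, but the log2 difference of 0.37 ± 0.25 was not called (adjusted p = 0.514, limma). In nOIR p17 it ran from 1393 over 1890 to 2195. In OIR p17 it was 6308 in S1, 7899 in S2, 12568 in S3, 7762 in S4, 6888 in S5, 6056 in S6, 1994 in S7 and 3932 in S8. Of these 8 mice, 7 lay above all controls, 6 of them at 6056 or more, and S7 lay within the nOIR p17 range. Igfbp7 rose by 1.76 ± 0.24 on the log2 scale (adjusted p = 2.24e-06, limma), from 1790.5 ± 325 to 6676 ± 3103 (n = 6 and 8), a ratio of means of 3.73. It was 2.11 without the 4 mice high in lens RNA (adjusted p = 1.02e-09, limma).

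Igfbp7 shares its locus with Polr2b on the opposite strand, and the libraries do not mark strand, so that reads from their overlap cannot be assigned. Polr2b had a mean of 4411 normalized reads and log2 differences of 0.17 ± 0.11 at p14 and -0.08 ± 0.10 at p17, neither of them called (adjusted p = 0.491 and 0.718, limma).

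Igfbp5, which binds to extracellular matrix, rose at both ages. Its median was 1014 normalized reads in nOIR p14 (range 879.5 to 1303) and 1863 in OIR p14 (1151 to 2044). Of the 6 OIR p14 mice, 5 were above every control, and S1 lay within the control range. Igfbp5 rose by 0.74 ± 0.15 on the log2 scale at p14 (adjusted p = 0.00187, limma). At p17 its median was 848 in nOIR (819 to 999.7) and 2258 in OIR (1188 to 2639.9). These groups did not overlap, as for 5.87% of all genes, and Igfbp5 was the only member of which this held at p17. It rose by 1.26 ± 0.14 (adjusted p = 1.03e-07, limma), a ratio of means of 2.44, with S4 the lowest OIR p17 mouse at 1188 and the other 7 between 1952 and 2639.9.

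Igfbp2, the main binding protein of cerebrospinal fluid, was higher by nearly the same amount at both ages. It ran from 569 over a median of 653 to 737 normalized reads in nOIR p14 and from 810.5 over 1028 to 1166 in OIR p14, without overlap. It rose by 0.62 ± 0.14 on the log2 scale (adjusted p = 0.00669, limma). At p17 it ran from 521 over 621 to 739 in nOIR and from 669 over 1002 to 1538 in OIR, with 7 of 8 OIR mice above all controls and S1 within their range. It rose by 0.67 ± 0.14 (adjusted p = 0.000683, limma). The difference between the ages was 0.05 ± 0.20 (adjusted p = 0.966, limma).

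Igfbp4, which restrains IGF action until it is cut by the protease PAPP-A, was not called at either age. Its median was 1268 normalized reads in nOIR p14 (1157 to 1587), 1168 in OIR p14 (544 to 1487), 1168 in nOIR p17 (1100.4 to 1287) and 1316 in OIR p17 (1119.7 to 1822). OIR p14 S1, at 544, stood apart from the other 25 mice, of which the lowest had 1004. The log2 difference was -0.30 ± 0.16 at p14 (adjusted p = 0.355, limma; -0.11 without S1) and 0.24 ± 0.15 at p17 (adjusted p = 0.383, limma).

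Igfbp6, which prefers Igf2 as its ligand, had 6.07 to 31.1 normalized reads in nOIR p14 (median 17.2), 4.19 to 23.9 in OIR p14 (11.3), 34.2 to 65.3 in nOIR p17 (41.2) and 14.5 to 93.9 in OIR p17 (48.5). OIR and nOIR overlapped at both ages. The log2 differences were -0.68 ± 0.42 at p14 (adjusted p = 0.452, limma) and -0.03 ± 0.39 at p17 (adjusted p = 0.976, limma).

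An exact two-sided permutation test over mice was also run for each member in the comparisons of 2 groups, 36 tests in all without adjustment. At p14 this exact test gave p = 0.0022 for Igfbp2 and Igfbp3, the smallest that 6 against 6 mice allow, and p = 0.0065 for Igfbp5. At p17 the exact test gave p = 0.000666 for Igfbp5, the smallest possible with 8 against 6, p = 0.0013 for Igfbp7, p = 0.0027 for Igfbp2 and Igfbp3 and p = 0.0047 for Igf1. The exact permutation test gave p = 0.0108 for Igfbp7 and p = 0.0303 for Igf1r at p14, and p = 0.0393 for Igfbp4 at p17, which the limma fit did not call. From p14 to p17 the exact permutation test in nOIR gave p = 0.0022 for Igfbp6, p = 0.013 for Igfbp3 and p = 0.0346 for Igfbp5, none of them called by limma, and in OIR p = 0.000666 for Igf1, p = 0.0033 for Igfbp6 and p = 0.008 for Igfbp7. The other 19 exact tests gave p over 0.05.

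Whether the OIR difference changed between the ages was tested directly, as the difference at p17 minus that at p14. Igfbp7 alone of the 9 members was called, with a change of 1.38 ± 0.35 on the log2 scale (adjusted p = 0.0326, limma), where 1.58% of all genes were called. This call was close to the threshold. It was lost when any of 10 single mice was left out (adjusted p up to 0.0668, limma). These were nOIR p14 S3, S5 and S7, nOIR p17 S1 and S6, OIR p14 S1, S2, S3 and S6, and OIR p17 S2. The call was also lost with all genes above 0 tested (adjusted p = 0.0576, limma), and it held without the 4 mice high in lens RNA (adjusted p = 8.62e-05, limma). Igfbp3 had a smaller difference at p17 than at p14, by -1.05 ± 0.56, which was not called (adjusted p = 0.522, limma). This value was smaller in size in other fits, at -0.64 by edgeR and by DESeq2, -0.60 with the replicate block and -0.49 without the 4 mice high in lens RNA, and was called in none of these. The changes of Igf1 (-0.38 ± 0.14), Igfbp4 (0.54 ± 0.22) and Igfbp5 (0.52 ± 0.21) were not called either, at adjusted p = 0.223, 0.334 and 0.322 (limma), and that of Igfbp5 was called without OIR p17 S4 (adjusted p = 0.047, limma). For Igf2, Igf1r and Igfbp6 the changes were 0.48 ± 0.39, -0.19 ± 0.17 and 0.65 ± 0.57, with adjusted p = 0.719, 0.746 and 0.752 (limma).

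Age was compared within each treatment. From p14 to p17 no member was called in nOIR mice, where 0.317% of all genes were, and at an unadjusted p under 0.05 were Igfbp6 (ratio of means 2.46, unadjusted p = 0.00324, adjusted p = 0.231, limma) and Igfbp3 (log2 difference 0.89 ± 0.41, unadjusted p = 0.036, adjusted p = 0.635). The other 7 members (Igf1, Igf2, Igf1r, Igfbp2, Igfbp4, Igfbp5 and Igfbp7) lay between -0.24 and 0.03 on the log2 scale in nOIR mice. The Igfbp6 values of the 2 nOIR groups did not overlap, as for 1.49% of all genes. In OIR mice, where 5.91% of all genes were called between the ages (4.11% higher and 1.81% lower), Igfbp6 rose by 1.99 ± 0.39 (adjusted p = 0.00131, limma) and Igfbp7 by 1.15 ± 0.24 (adjusted p = 0.0022), and Igf1 fell by 0.53 ± 0.09 (adjusted p = 0.000357). The other 6 members (Igf2, Igf1r, Igfbp2, Igfbp3, Igfbp4 and Igfbp5) lay between -0.16 and 0.40 and were not called, and Igfbp5 among them was called without OIR p17 S4 (0.39, adjusted p = 0.0384, limma). The Igf1 values of OIR p17 and OIR p14 did not overlap, as for 1.8% of all genes, the highest at p17 being 1352 and the lowest at p14 1429.8. These comparisons share their groups with those above.

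On the per kb scale the 6 binding proteins among the members summed to 2634 ± 295 normalized reads in nOIR p14, 3726 ± 605 in OIR p14, 2373 ± 327 in nOIR p17 and 7218 ± 2848 in OIR p17 (SD). Igfbp1 is not a member and is not in these sums. The sums of nOIR p14 (2253 to 3044) lay below those of OIR p14 (3212 to 4854), and those of nOIR p17 (1985 to 2796) below those of OIR p17 (2994 to 12762). Igfbp7 made up 65.7% ± 2.77 of the sum in nOIR p14, 60.4% ± 2.56 in OIR p14, 62.1% ± 3.47 in nOIR p17 and 74.0% ± 9.14 in OIR p17. The share of Igfbp3 was 2.09% ± 0.793 in nOIR p14 and 9.94% ± 2.19 in OIR p14, then 4.20% ± 1.12 in nOIR p17 and 5.50% ± 3.22 in OIR p17. These sums and shares are a description and were not tested.

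**Figure D3:**
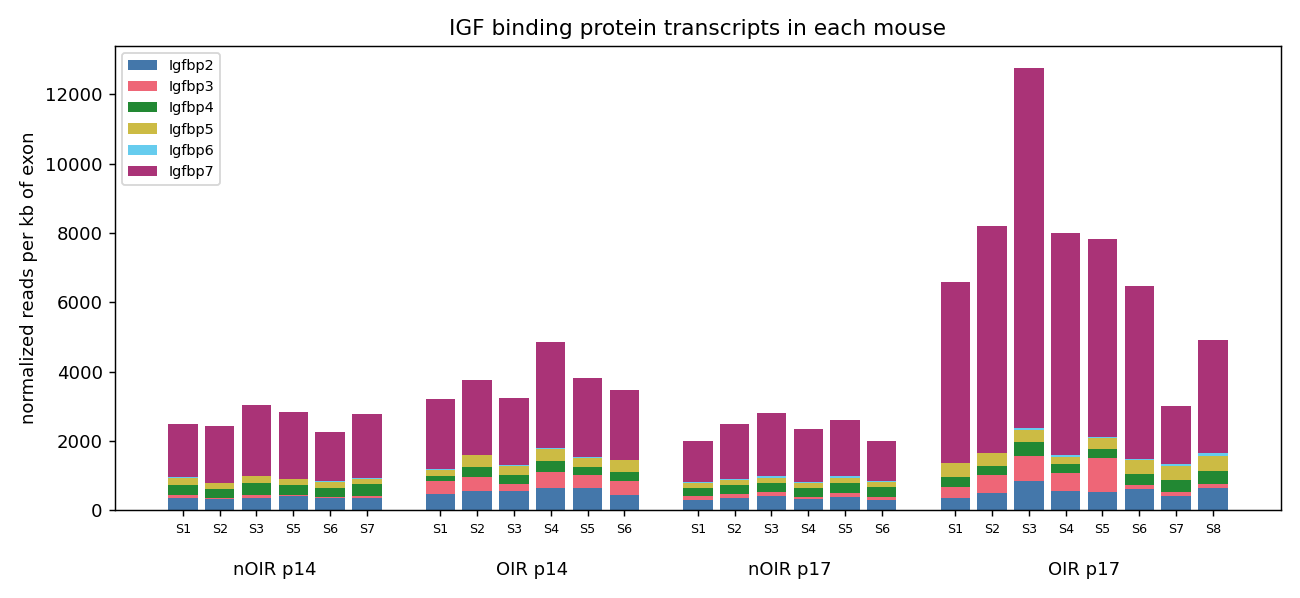
Normalized reads per kb of exon (y axis) of the 6 binding proteins among the members, stacked for each mouse (x axis). Igfbp7 forms the largest part of every bar, and the OIR p17 bars range from 2994 in S7 to 12762 in S3.

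The mice that were low in one of these genes in OIR p17 were not low in all. Igfbp3 and Igfbp7 had a Pearson r of 0.70 over the 26 mice and 0.66 for deviations from the group means. Of the 4 groups, OIR p17 had the widest spread of Igfbp3 and Igfbp7 (log2 SD 1.21 and 0.79), so that it weighs most in their r for deviations. Igfbp2 and Igfbp7 had 0.72 over the 26 mice and 0.56 for deviations. Igfbp5 and Igfbp7 had 0.63 over all mice, which is the group pattern, but -0.26 for deviations. S7 and S8, the 2 lowest of their group in Igfbp3 and in Igfbp7, had 2417 and 2639.9 normalized reads of Igfbp5, the 2 highest values of their group. These correlations share libraries and size factors and are given as a description over 26 mice.

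**Figure D4:**
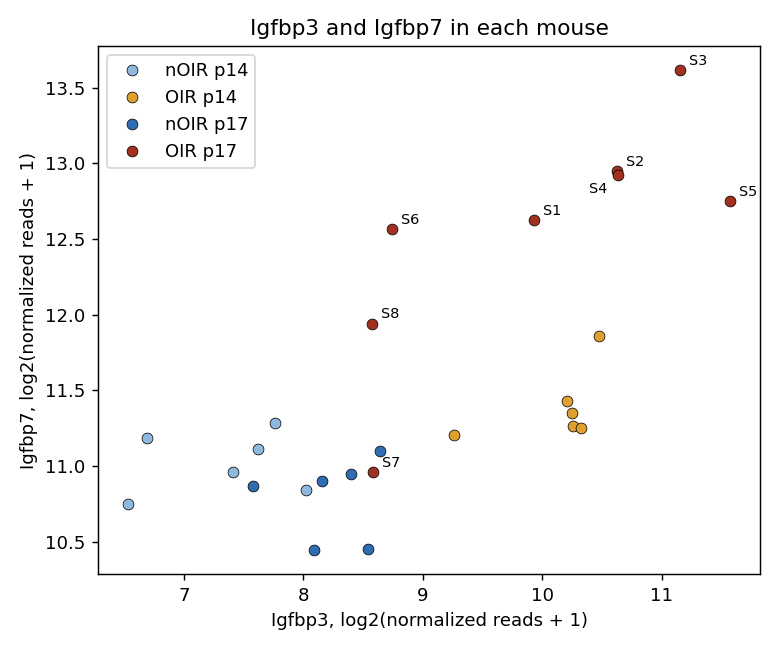
Igfbp3 (x axis) against Igfbp7 (y axis), both as log2 of normalized reads + 1, 1 point per mouse, with OIR p17 mice labelled. Mice S1 to S5 lie at the upper right, and S7 lies among the nOIR p17 mice. S6 and S8, of which S8 is the lower, have Igfbp7 above every nOIR mouse with Igfbp3 near the controls.

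Among 19003 genes with a mean of at least 10, those whose log2 values were most like a member's over the 26 mice were listed by Pearson r. Igfbp3 was closest to Bcl3 (0.88), Rela (0.86) and Timp1 (0.86), and, for deviations from group means, to Cebpb (0.91), Csnk1e (0.91) and Fndc10 (0.90). Igfbp7 was closest to Pdgfb (0.90), Slc7a5 (0.86) and Sting1 (0.86), and for deviations to Taf10, Dexi and Coq2 (all 0.91). Igfbp5 was closest to Triobp, Slc12a4 and Slc1a4 (all 0.93). Igfbp2 was closest to Gm48236 (0.91), S100a16 (0.90) and Clic1 (0.90), and for deviations to Sac3d1 (0.87), Set (0.87) and Inafm1 (0.86). Igf1 was closest to Tmem215 (0.86), Pcdhb9 (0.83) and St6gal2 (0.83), and for deviations to Csrnp3 (0.74), Olfm3 (0.73) and Zfp2 (0.73). Igfbp4 was closest to Zfp768, Pdia4 and Fbxo46 (all 0.86), Igf1r to Gm48958 (0.82), Igfbp6 to Haus8 (0.83) and Igf2 to Cox6b2 (0.72). A high r over all mice reflects the 4 groups as well as single mice.

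Markers of several cell types were called in the same comparisons. Of all genes tested, 7.39% were called higher and 5.12% lower at p17, and 3.18% and 2.91% at p14. The lists are short, so that a count of 1 in a list cannot be told from these shares. At p17, 8 of 10 endothelial, 10 of 10 mural, 8 of 10 microglia and macrophage, 3 of 4 astrocyte, 4 of 6 fibroblast and 3 of 3 red blood cell markers were called higher in OIR mice. Of the neuron and Muller glia lists given here, called lower at p17 were 4 of 7 Muller glia markers (1 was higher), 3 of 5 amacrine, 3 of 6 ganglion cell, 2 of 6 rod and 0 of 5 cone markers. At p14, 3 of 7 Muller glia markers (1 was higher), 3 of 5 amacrine, 2 of 6 ganglion cell, 1 of 6 rod and 1 of 5 cone markers were called lower. The summed endothelial level ran from 8175 to 9974 in nOIR p17 and from 11895 to 15557 in OIR p17, the summed mural level from 3156 to 3975 and from 10398 to 16195, and the summed red blood cell level from 159.5 to 911 and from 980.0 to 13336. At p14 the summed endothelial level was 10053 to 13131 in nOIR and 8027 to 13083 in OIR, and 1 of 10 endothelial markers was called higher and 1 lower. Also at p14, 3 of 10 mural markers were called higher and 3 lower, and 2 of 10 microglia and macrophage, 2 of 4 astrocyte and 2 of 6 fibroblast markers were called higher, with 0 of 3 red blood cell markers called. The summed astrocyte level was 1027 to 1799 in nOIR p14 and 2857 to 8809 in OIR p14. In the 3 OIR p17 mice with Igfbp3 near the controls, the endothelial sum was 13902, 13819.8 and 13853 and the mural sum 13569, 13260 and 14623, within the range of the other 5 mice. Their microglia and macrophage sum, at 4529, 4583 and 5307, lay above that of the other 5 (3127 to 4522), but S6 was nearly level with S3, at 4529 and 4522. In S7 and S8, but not in S6, the Muller glia sum (71917 and 73918), the rod sum (1381811 and 1575034) and the ganglion cell sum (26725 and 34654) also lay above those of the other 5, which ran from 53757 to 65603, from 1012096 to 1296708 and from 21564 to 26663. The cone, amacrine and retinal pigment epithelium sums were above the other 5 in S8 and the fibroblast sum in S7. What part these cell types had in the members' differences was not tested.

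The promoters of Igfbp7, Igfbp3 and Igfbp5 are shown because these 3 members had the highest log2 differences at p17, and ACGTG and GCGTG, the core letters of the hypoxia response element, were searched because the retina is hypoxic in this model. They are the 250 bases before the RefSeq start site in GRCm38.p6, on the gene's strand and 5′ to 3′, with each ACGTG or GCGTG on either strand in capitals, so that a match on the opposite strand reads CACGT or CACGC. Igfbp3 (chr11:7213924-7214173, minus strand) has GCGTG 188 and 55 bases before the start. Igfbp7 (chr5:77408046-77408295, minus strand) has GCGTG on the opposite strand 187 bases and ACGTG 175 bases before it. Igfbp5 (chr1:72874866-72875115, minus strand) has neither.
Igfbp3: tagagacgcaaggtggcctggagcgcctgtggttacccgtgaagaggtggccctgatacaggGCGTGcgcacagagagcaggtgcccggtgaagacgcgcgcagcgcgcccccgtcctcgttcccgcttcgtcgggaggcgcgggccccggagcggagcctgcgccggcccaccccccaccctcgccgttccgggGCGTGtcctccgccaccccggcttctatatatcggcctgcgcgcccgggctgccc
Igfbp7: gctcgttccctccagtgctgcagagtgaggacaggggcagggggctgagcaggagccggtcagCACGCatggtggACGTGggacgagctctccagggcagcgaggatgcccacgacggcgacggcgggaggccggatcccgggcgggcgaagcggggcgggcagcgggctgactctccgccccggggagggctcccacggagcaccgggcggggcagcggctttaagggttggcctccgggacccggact
Igfbp5: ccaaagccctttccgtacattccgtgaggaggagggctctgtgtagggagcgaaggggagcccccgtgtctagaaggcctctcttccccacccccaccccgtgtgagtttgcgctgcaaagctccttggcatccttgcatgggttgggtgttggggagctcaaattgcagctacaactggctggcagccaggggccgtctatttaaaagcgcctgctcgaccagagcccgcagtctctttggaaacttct
Either motif was found for 6 of the 9 members, in 6 of their 13 listed promoters, and in 38.6% of all 32851 promoters of this length. Both motifs hold the letters CG, and the share over all promoters was not matched for base composition. G and C made up 73.2% of the window of Igfbp3, 74.0% of Igfbp7 and 58.8% of Igfbp5, beside a median of 52.4% over all promoters. Those with a match were Igf1, Igf2, Igf1r, Igfbp2, Igfbp3 and Igfbp7, which include members that rose, fell and were not called, and Igfbp4, Igfbp5 and Igfbp6 had none. The first listed promoter of Igfbp2 holds 4 matches, of which those 142 and 141 bases before the start overlap in 1 palindrome, and the second holds none. For Igfbp7, Igf1r, Igfbp6 and the first promoter of Igfbp2, the bases after the RefSeq start were not found in the GENCODE M21 transcripts of the gene. A match is a string of letters and not a measured binding site.

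The rest of the IGF axis was followed in a list of 38 genes, of which 37 were tested. At p14 2 rose and none fell, and at p17 7 rose and none fell, which is 5.41% and 18.9% of the list beside 6.09% and 12.5% of all genes. The median log2 difference of the list was 0.10 at p14 and -0.04 at p17, beside 0.02 and -0.02 over all genes. The insulin receptor Insr, its relative Insrr and the IGF2 scavenger receptor Igf2r were not called at either age, and neither were the docking proteins Irs1 and Irs2. The 3 other binding proteins of the list, among them Igfbp1, were not called at either age. At p17 the log2 difference was 0.21 ± 0.12 for Insr (adjusted p = 0.332), 0.07 ± 0.28 for Igf2r (0.923), -0.31 ± 0.17 for Irs1 (0.295) and -0.60 ± 0.31 for Irs2 (0.25, limma).

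Of the 5 listed genes of binding protein cleavage and its inhibition, 2 rose at p14 and 3 at p17, where 3.18% and 7.39% of all genes were called higher. Stc2 and Stc1 encode the stanniocalcins, which inhibit the PAPP-A proteases. Stc2 had a mean of 40.9 ± 11.7 normalized reads in nOIR p14, 185 ± 71.1 in OIR p14, 42.5 ± 10.5 in nOIR p17 and 270 ± 59.3 in OIR p17 (SD). It rose by 2.11 ± 0.24 on the log2 scale at p14 (adjusted p = 6.98e-07, limma) and by 2.65 ± 0.23 at p17 (adjusted p = 5.79e-10). Stc1 had 282 ± 50.2 in nOIR p14, 446 ± 72.8 in OIR p14, 314 ± 49.8 in nOIR p17 and 641 ± 112 in OIR p17, and rose by 0.66 ± 0.14 (adjusted p = 0.00226, limma) and 1.02 ± 0.13 (adjusted p = 7.66e-07). The proteases themselves, Pappa and Pappa2, were not called, with log2 differences of -0.11 ± 0.35 and -0.60 ± 0.26 at p17 (adjusted p = 0.905 and 0.142, limma). Htra1, a secreted protease that cuts Igfbp5, rose by 0.45 ± 0.12 at p17 (adjusted p = 0.00925, limma).

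Downstream of the receptor, the adaptors Shc1 and Gab1 rose at p17, by 0.91 ± 0.13 (adjusted p = 3.22e-06, limma) and 0.79 ± 0.12 (adjusted p = 1.94e-05). Of the 14 genes of the PI3K-AKT-mTOR cascade 1 was called at p17, Eif4ebp1, which encodes a repressor of translation that mTOR inactivates. This is 7.14% of the cascade, beside 12.5% of all genes called at p17 and 7.39% called higher. Eif4ebp1 had 51.2 ± 17.6 normalized reads in nOIR p17 and 337 ± 127 in OIR p17, and rose by 2.68 ± 0.24 (adjusted p = 1.09e-09, limma). At p14 its difference of 0.81 ± 0.25 just missed the threshold (adjusted p = 0.0535, limma) and passed it in 6 other settings, among them edgeR and DESeq2. H19, a noncoding RNA of the Igf2 locus, was called at p17 with 1.96 ± 0.61 (adjusted p = 0.0314, limma) on 3.15 ± 2.40 normalized reads in nOIR and 19.3 ± 20.3 in OIR. That call was lost without the 4 mice high in lens RNA (1.40, adjusted p = 0.183, limma), with all genes above 0 tested (adjusted p = 0.0593), with the compared groups only (0.0541), after quantile normalization (0.0585), with Cryaa as a covariate (0.0592, limma) and without any of 6 single mice (nOIR p17 S3, S4 or S6, or OIR p17 S2, S3 or S7; adjusted p up to 0.109). At p14 H19 was not called with all mice (1.79, adjusted p = 0.117, limma) and was called without the mice high in lens RNA (2.11, adjusted p = 0.0427, limma).

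**Figure D5:**
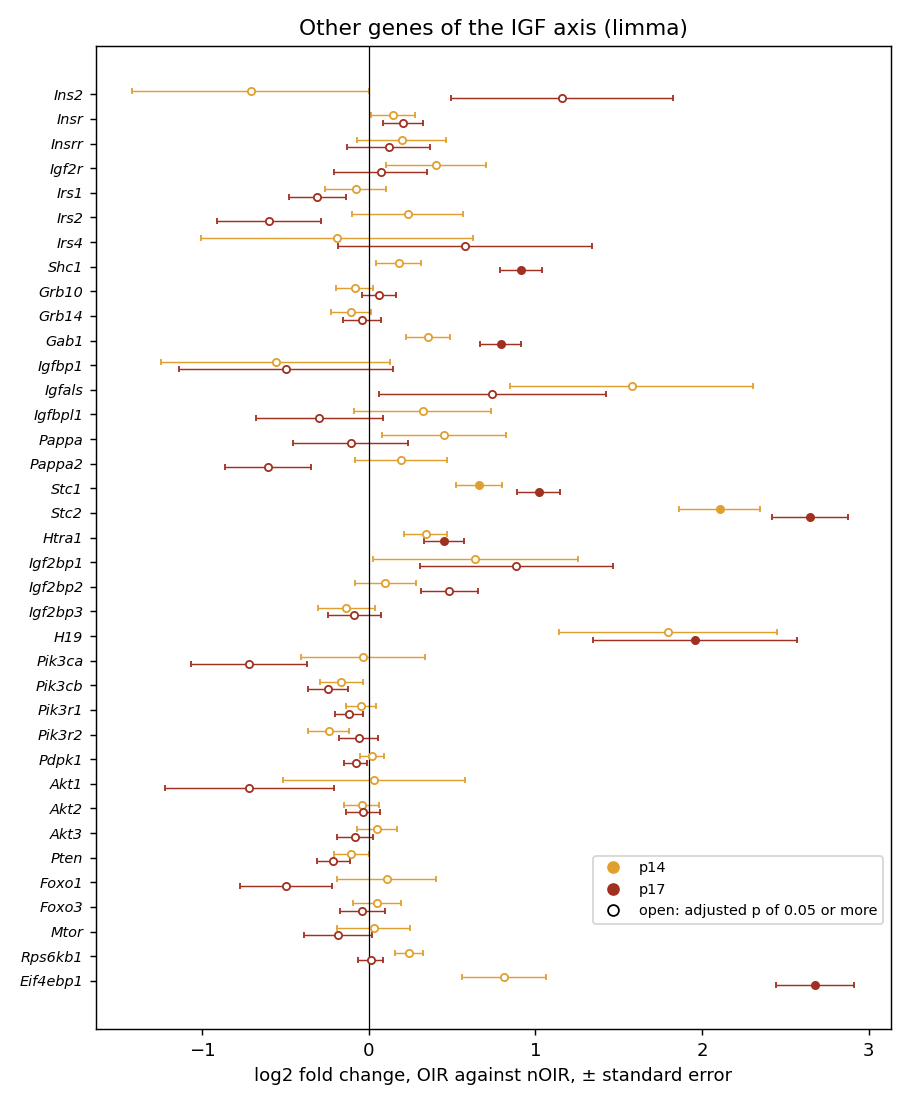
Log2 fold change of OIR against nOIR mice (x axis, ± standard error, limma) at p14 and p17 for the 37 tested genes of the IGF axis list (y axis), with filled points for an adjusted p under 0.05. Stc2 and Eif4ebp1 lie farthest to the right at p17, at 2.65 and 2.68, and no filled point lies below 0.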

How the data were processed

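Whole retinas of OIR and nOIR mice were sequenced by the authors from unstranded libraries (SMARTer v4 and Nextera XT, single reads of 50 cycles). Per the labels' processing notes and the methods, reads were mapped with STAR 2.7.8a to Gencode M28, counted with featureCounts 2.0.1 and divided by DESeq2 1.34 size factors in R 4.0.3 after quality control with FastQC 0.73. The values the authors deposited are a signal of normalized reads, counts divided by 1 size factor per mouse. Besides, group means, log2 fold changes from the authors' DESeq2 comparisons and the authors' p-values (Benjamini-Hochberg) were deposited and not used here.

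Dividing each column by its smallest step gave whole reads for 100% of values (tolerance 0.001 reads). PCR copies were not removed, so totals are reads and not molecules. The lowest chi-square per degree of freedom between mice of a group was 9.39, so none was a copy.

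The members and gene lists were chosen with earlier results of these data known. All 9 members are named in every comparison, and of the axis list the called genes and some that were not. Genes with a mean of at least 1 were fitted in 1 model of 4 groups (26 mice) by limma 3.58.1 in R 4.3.3 (eBayes with trend) on log2(normalized reads + 1). A fold change on this scale understates that of low genes. P-values were adjusted by Benjamini-Hochberg over 27137 genes. Data were simulated for the p17 comparison with a log2 change of 1.5 in 200 genes with a mean of at least 10. Of these, 85% were recovered, with 12 calls on unchanged genes, in a run of 26588 genes. The share recovered for smaller changes or lower genes was not tested. Alternatives were another pseudocount (0.1), filters, mice left out, normalizations, covariates, a replicate block, and edgeR 4.0.16 and DESeq2 1.42.0 on the recovered reads. Exon lengths came from GENCODE M21, an annotation other than the authors', and promoters from RefSeq (GRCm38.p6), where all 9 members were matched. Proteins and human samples were not analysed here. The genes most like Igfbp5 in deviations from group means and 1 list of neuron markers are not reported here, so that the marker counts do not cover every retinal cell type.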

Additional observations from a re-analysis of the deposited data

Results flagged for a closer look

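In each of the 36 sets of a member in a group, the lowest and the highest mouse were compared with the others by Dixon's ratio, the gap to the nearest mouse over the whole range on the log2 scale. Of these 36 sets, 4 passed the 95% critical value at either end, where chance gives about 1 set in 20. Igfbp3 was lowest in OIR p14 S3, with a ratio of 0.78. Igfbp7 was highest in OIR p14 S4, with 0.657. Igfbp5 was lowest in OIR p17 S4, with 0.622, and Igf2 was lowest in OIR p17 S1, with 0.601. The 3 OIR p17 mice of low Igfbp3 do not appear here because they lie close to each other.

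The OIR difference of Igfbp7 was larger at p17 than at p14 by 1.38 on the log2 scale, by the test of the difference itself (adjusted p = 0.0326, limma). This call was close to the threshold and was lost when any of 10 single mice was left out, and with all genes above 0 tested.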

How the results depend on the processing

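The counts of members called stayed within 1.5 times the main count, with these exceptions. At p17 the 1 member that fell (Igf1) was 0 without the 4 mice high in lens RNA. In the test of the difference between ages the 1 member (Igfbp7) was 0 with all genes above 0 tested, and from 0 to 2 with single mice left out. In the axis list, 4 genes in place of 2 rose at p14 with libraries scaled to the same total and with DESeq2, and from 0 to 1 fell at p17 with single mice left out. Members called at p14 and p17 kept direction and call in the other settings (pseudocount, filters, S4 included, compared groups alone, normalizations, covariates, edgeR and DESeq2). No setting moved the median of all genes by over 0.1 on the log2 scale.

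Deviations of same-number mice in different groups correlated from -0.11 to 0.16. Mice of different numbers were not compared in this way, so that whether the numbers pair the mice was not settled. With the number as a block, the calls of members were 3 higher at p14, and 4 higher and 1 lower at p17, as without it.

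Signs turned in differences near 0 that were not called. Igf1 at p14 was -0.0049 with S4 included and -0.0030 with the replicate block, and -0.034 to 0.065 with single mice left out. At p17, scaled to the same total, by edgeR and by DESeq2, Igf2 was 0.037, 0.033 and 0.035, and Igfbp6 0.033, 0.13 and 0.12, and with single mice left out they were -0.15 to 0.14 and -0.19 to 0.18. Igfbp2 between ages of the OIR difference was -0.044 to 0.13 with single mice left out. From p14 to p17 in nOIR, Igf1r was -0.016 both without mice high in lens RNA and scaled to the same total. With single mice left out, Igf1r was -0.027 to 0.072 and Igf2 -0.17 to 0.034. From p14 to p17 in OIR, Igfbp2 was 0.039 without mice high in lens RNA, 0.0246 by edgeR, 0.0152 by DESeq2, 0.0275 with Xist as a covariate and -0.10 to 0.068 with single mice left out. Igfbp3 was 0.28 without mice high in lens RNA, 0.16 with the replicate block, 0.21 by edgeR, 0.20 by DESeq2, 0.040 with Cryaa as a covariate and -0.38 to 0.046 with single mice left out. The cause was not tested. Igf2 and Igfbp6 had fewer than 100 normalized reads in every mouse.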
